A study of Sus scrofa with 6 samples.

Results

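The heat shock protein, chaperone and endoplasmic reticulum (ER) stress genes were read in the left ventricular (LV) free wall of piglets injected with doxorubicin (Dox). They were chosen by gene symbol alone: the HSP, DNAJ, CCT, BAG and PDIA families together with CRYAB, TCP1, DDIT3, XBP1, ATF4, CALR and CANX. In all, 64 genes on 110 probe sets matched, of 6765 genes with a symbol of their own and 23999 probe sets that are not array controls. HERPUD1 and P4HB, also in the rule, had no probe set under those names. Each gene was read at its brightest probe set.

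The study compared 6 arrays, 1 for each animal, from 3 Dox-injected and 3 PBS-injected Large White piglets. The labels give the Dox group a single intravenous injection of 2.0 mg/kg at 8 days of age, PBS injection for the controls, and LV tissue taken 3 weeks later from 28-day-old animals of both groups. The published methods give an earlier injection, a later harvest and a dose range that reaches lower. The labelled 2.0 mg/kg is the upper end of that range. Dox is an anthracycline anticancer drug that damages heart muscle, and PBS is the saline buffer used as its control. Each probe set has a MAS5 signal, its brightness on a linear scale, and the 2 groups were compared on log2 signals with limma, with Benjamini-Hochberg adjustment over all 23999 probe sets. Differences are Dox minus PBS, so 1 unit is a 2-fold higher signal in Dox. A signal is called within the Tag range where it is no higher than the brightest of the probe sets for synthetic Tag sequences on its array, which lay between 2.5 and 6.3.

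Heat shock proteins are molecular chaperones that hold unfolded proteins in solution, refold them or pass them on for degradation. In the cytosol, heat shock factor 1 drives their inducible members when unfolded protein accumulates, whereas in the ER the unfolded protein response acts through ATF4, XBP1 and ATF6. Cardiomyocytes carry an unusual load of small heat shock proteins, which bind the desmin, titin and actin filaments of the sarcomere.

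Array quality and cell content were read first. Array Dox 3 had the lowest correlations with the other arrays (0.897 to 0.916, against a highest value of 0.945 among all pairs), and array Dox 1 had a 3'/5' ratio of 11.6 at the EF1A control probe sets, against 4.24 to 4.86 on the other 5. At the actin control the ratio was highest on PBS 2 (120.6), then Dox 1 (76.9) and PBS 3 (62.4), against 29.6 to 35.1 on the others. GAPDH ratios were 1.16 to 1.55, with Dox 1 the highest. All 13 measured cardiomyocyte markers lay above the Tag range, and their summed signal was 64282 to 86039 on the Dox arrays and 52083 to 62752 on the PBS arrays. Fibroblast markers (5 genes) summed to 874 to 2148 on the Dox arrays and 2330.3 to 3187 on the PBS arrays, and 7 leukocyte markers to 441 to 1339 on the Dox arrays and 305 to 408 on the PBS arrays. Smooth muscle markers (3 genes) summed to 874 to 2349.7 on the Dox arrays and 905 to 1797 on the PBS arrays, with Dox 3 the highest. Endothelial markers (6 genes) summed to 1114 to 1260.1 on the Dox arrays and 1299.5 to 1912 on the PBS arrays. Of these 6 genes, 4 had a log2 difference below 0 and 2 above it (VWF 0.15 and FLT1 0.48). Only CDH5 had groups that did not overlap, lower in Dox. PECAM1 had 797.2 on PBS 1, against 352.5 and 336.4 on the other PBS arrays, and KDR was within the Tag range on 3 arrays. Among the leukocyte markers PTPRC and S100A12 were within the Tag range on at least 4 arrays. Of the 7, 6 had a log2 difference above 0, among them S100A9 with 56.9, 681.5 and 185.9 on the Dox arrays, against 9.2, 7.8 and 27.5 on the PBS arrays. AIF1 ran the other way, with 113.4, 68.2 and 45.0 on the Dox arrays, against 97.2, 120.4 and 110.8 on the PBS arrays (log2 difference -0.63). In whole LV tissue, fewer cells of a type and less RNA per cell cannot be told apart.

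None of the 64 genes reached both an adjusted p of 0.05 or less and a change of 2-fold or more, and neither did any other probe set (0.0% of 23999, smallest adjusted p = 0.428 by limma). At an unadjusted p of 0.05 or less, HSPB7 and HSPB3, small heat shock proteins of muscle, were higher in Dox-injected piglets and HSPD1, the mitochondrial chaperonin HSP60, was lower. These 3 genes are 4.69% of the 64, against 9.54% of all probe sets (3.62% higher and 5.92% lower in Dox) and 11.5% of all genes at their brightest probe set. The median log2 difference of the 64 genes was 0.05, with 39 above 0 and 25 below, against -0.10 over all probe sets and -0.07 over all genes at their brightest probe set. In 9 of the 64 genes the Dox and PBS signals did not overlap (14.1%, against 16.3% of all probe sets, 6.19% higher and 10.1% lower in Dox). Over all genes at their brightest probe set the share was 19.4%. The 6 such genes with the higher signals in Dox were HSPB1, HSPB2, HSPB3, HSP90AB1, HSPA9 and CANX, and the 3 with the lower signals in Dox were HSPD1, HSPE1 and CCT6A. With 3 animals a side, 0.1 is the smallest two-sided p that an exact permutation test allows. Groups that do not overlap always give that value, so it adds nothing for these 9 genes.

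**Figure D1:**
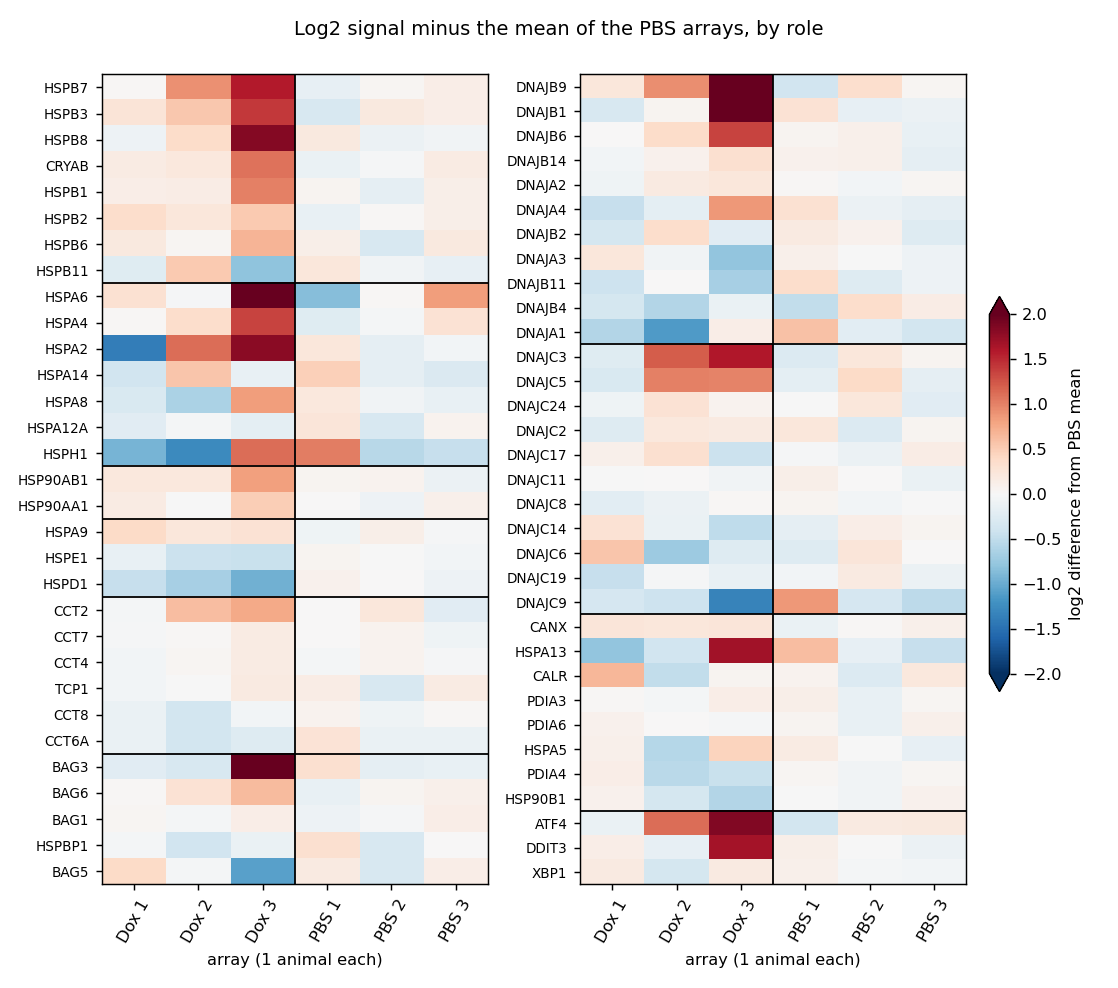
Heat map of the 64 genes (rows, grouped by role) on the 6 arrays (columns), coloured by log2 signal minus the mean log2 signal of the 3 PBS arrays, with colours capped at 2 units. The strongest red lies in the column of Dox 3, which had the highest signal of the 6 arrays for 33 of the 64 genes.

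The 3 Dox arrays were unlike each other in these genes. Array Dox 3 gave the highest of the 6 signals for 33 of the 64 genes (51.6%, against 25.0% of all genes) and the lowest for 10 (15.6%, against 34.7%). It was at 1 end or the other for 67.2% of the 64 genes and 59.7% of all genes. The median deviation of the 64 genes from the PBS mean was -0.04 log2 units in Dox 1, 0.01 in Dox 2 and 0.18 in Dox 3. Without Dox 3 the median difference of the 64 genes was 0.00, with 34 above 0, and 4 genes had an unadjusted p of 0.05 or less, all lower in Dox (6.25%, against 7.73% of all probe sets). These were DNAJA1, HSPA8, HSPH1 and HSPD1. Many differences are therefore also given without that array, and some without another array that moved them by over 1.5 times.

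**Figure D2:**
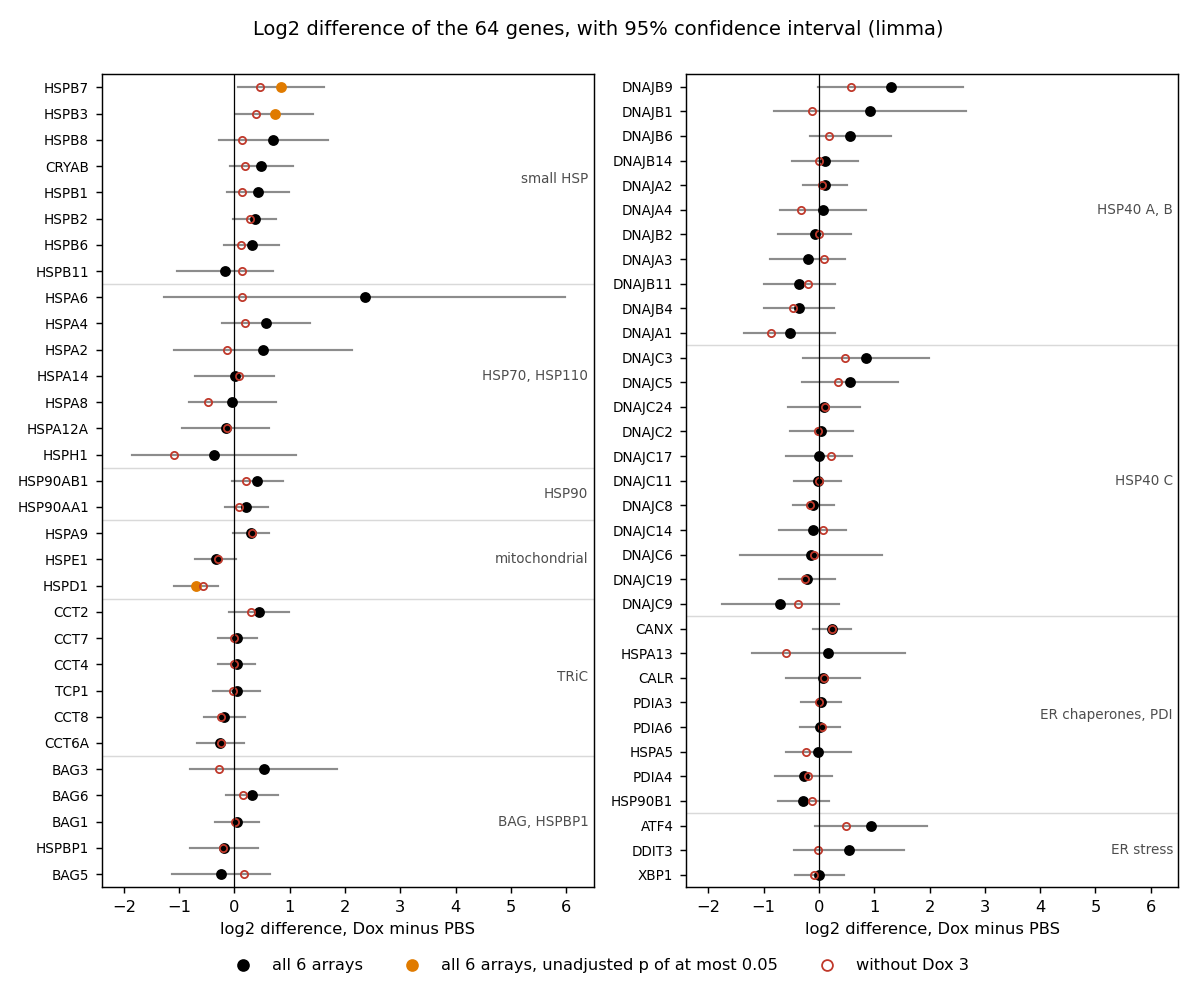
Log2 difference (Dox minus PBS, x axis) of each of the 64 genes by role, with the 95% confidence interval of the limma fit as a grey bar. Filled points use all 6 arrays and are orange at an unadjusted p of 0.05 or less (HSPB7, HSPB3 and HSPD1), and open circles leave out Dox 3. HSPA6, DNAJB1 and BAG3 have open circles near or below 0 and filled points above it.

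Small heat shock proteins had the highest median difference of the role groups with at least 5 genes. Among the smaller groups, only the 3 ER stress regulators had a higher median (0.54, and -0.02 without Dox 3). Of 8 small heat shock protein genes, 7 had a log2 difference above 0 (87.5%, against 42.9% of all probe sets and 44.0% of all genes at their brightest probe set), with a median of 0.46. An unadjusted p of 0.05 or less was seen in 2 of the 8 (25.0%, against 9.54% of all probe sets and 11.5% of all genes). HSPB7, a small heat shock protein of heart and skeletal muscle, had signals of 1716, 3159 and 5032 on the Dox arrays, against 1501, 1727 and 1842 on the PBS arrays. Dox 2 and Dox 3 were above every PBS array and Dox 1 lay within the PBS range. The group means were 3302 ± 1663 in Dox-injected and 1690.1 ± 173 in PBS-injected piglets (SD, n = 3 each), and the difference did not pass the test across all probe sets (log2 difference 0.84, SE 0.34, adjusted p = 0.521 by limma). It was 0.47 without Dox 3 and 1.24 without Dox 1.

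HSPB3 and HSPB2 encode muscle small heat shock proteins that form a complex with each other. HSPB3 had signals of 589, 716 and 1316 on the Dox arrays, against 396, 567 and 540.4 on the PBS arrays. All 3 Dox arrays were above all 3 PBS arrays, although Dox 1 exceeded the highest PBS array only slightly (log2 difference 0.73, SE 0.30, adjusted p = 0.521 by limma, and 0.39 without Dox 3). HSPB2, which was chosen after its values were seen, had signals of 799, 737 and 900.0 on the Dox arrays, against 570.4, 642 and 680.1 on the PBS arrays. Its groups were also separate, the 3 Dox signals lay close together, and its difference of 0.36 (SE 0.17, adjusted p = 0.533 by limma) stayed between 0.29 and 0.43 when any 1 array was left out.

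CRYAB, the alpha-B crystallin that binds desmin and titin, had signals of 4592, 4783 and 8708 on the Dox arrays, against 3738, 4044 and 4597 on the PBS arrays. Dox 3 stood well above the other 5 arrays, and Dox 1 lay just under PBS 3 (log2 difference 0.49, SE 0.25, adjusted p = 0.553 by limma). Without Dox 3 its difference was 0.19. A second, dimmer CRYAB probe set read 41.2, 737 and 694 on the Dox arrays, against 33.5, 92.6 and 56.1 on the PBS arrays, a log2 difference of 2.31 (SE 1.0). There Dox 2 and Dox 3 were high and Dox 1 was within the PBS range. CRYAB and HSPB2 are neighbours in the pig gene table and their gene models overlap, and the identifier of that second probe set shares its cluster number with the HSPB2 probe set, so that probe set may read either gene.

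HSPB1 (HSP27), which binds actin, had signals of 2754, 2763 and 5043 on the Dox arrays, against 2607, 2211 and 2706 on the PBS arrays, so that the groups were separate but Dox 1 and Dox 2 exceeded the highest PBS array by little (log2 difference 0.43, SE 0.25, adjusted p = 0.583, limma). Without Dox 3 the HSPB1 difference was 0.14. HSPB8, which pairs with BAG3 in the clearance of damaged sarcomere proteins, stood out on Dox 3, with 608, 837 and 2324 on the Dox arrays, against 744, 602 and 618 on the PBS arrays. HSPB6 (HSP20) read 1557, 1398 and 2177 on the Dox arrays, against 1469, 1087 and 1559.7 on the PBS arrays. In both of these the groups overlapped, and their differences of 0.70 and 0.31 became 0.13 and 0.12 without Dox 3. That of HSPB8 was 1.10 without Dox 1, and that of HSPB6 was 0.15 without PBS 2. HSPB11, which despite its name is a subunit of the intraflagellar transport machinery, was the only gene of the 8 below 0, at -0.17, and was at 0.14 without Dox 3. HSPB8, HSPB6 and HSPB11 were chosen after their values were seen. Without Dox 3 all 8 genes were above 0, with a median of 0.17 and none at an unadjusted p of 0.05 or less. With quantile normalization the median was 0.26. Cardiomyocyte markers lay higher in Dox too, where 11 of 13 had a difference above 0 with a median of 0.29, and Dox 3 was the highest array for 12 of 13. The part of cardiomyocyte content in the small heat shock protein signals was not tested.

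**Figure D3:**
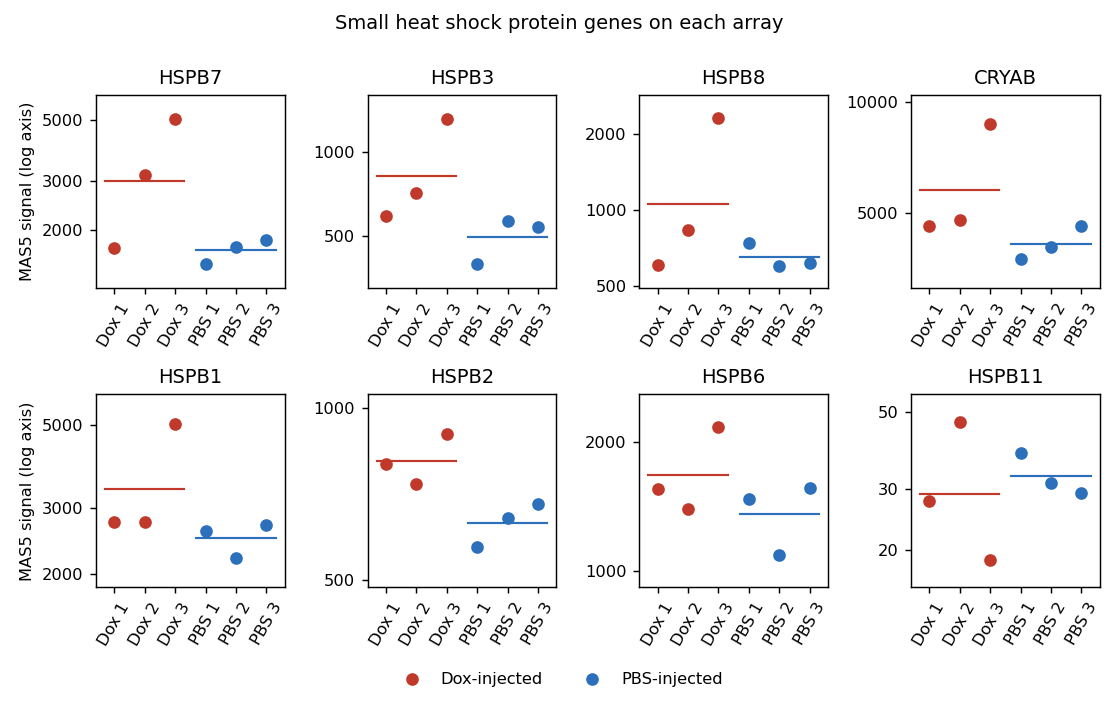
MAS5 signal (log axis) of the 8 small heat shock protein genes on each array, Dox arrays in red and PBS arrays in blue, 1 animal per point, with lines at the geometric means. Dox 3 is the highest array in 7 of the 8 panels, and the Dox points lie above all PBS points for HSPB3, HSPB2 and HSPB1.

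At their brightest probe sets, 2 of the 3 mitochondrial chaperone genes were lower on every Dox array than on any PBS array and 1 was higher on every Dox array. Groups without overlap were found in 19.4% of all genes at their brightest probe set, 9.06% higher and 10.4% lower in Dox. HSPD1 (HSP60) and HSPE1 (HSP10) together form the chaperonin that folds proteins imported into the mitochondrial matrix, and HSPA9 (mortalin) is the HSP70 that pulls them in. HSPD1 had signals of 1068, 924 and 756 on the Dox arrays, against 1565, 1484 and 1372 on the PBS arrays. Every Dox array was below every PBS array, with a gap between the highest Dox and the lowest PBS signal. The means were 916 ± 156 in Dox-injected and 1474 ± 97.0 in PBS-injected piglets (SD, n = 3 each), a ratio of geometric means of 0.62 with a log2 difference of -0.70 (SE 0.18, 95% interval -1.10 to -0.29, adjusted p = 0.521 by limma). The difference stayed between -0.82 and -0.57 when any 1 array was left out. HSPD1 had an unadjusted p of 0.05 or less in all 16 settings run, including the removal of each array. No other of the 64 genes did. The settings refit the same arrays and are not independent tests. The share of all genes with such a p in all 16 settings was not computed, so no excess over the background is read from this.

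HSPE1 had signals of 1131, 926 and 917 on the Dox arrays, against 1296, 1249 and 1208 on the PBS arrays. Its groups were also separate (log2 difference -0.34, SE 0.16, adjusted p = 0.533 by limma, -0.44 to -0.29 with 1 array left out). HSPD1 and HSPE1 lie next to each other in the pig gene table and their models do not overlap. The brightest HSPA9 probe set had signals of 3782, 3405 and 3527 on the Dox arrays, against 2717, 3126 and 2864 on the PBS arrays, so that all 3 Dox arrays were above all 3 PBS arrays (log2 difference 0.30, SE 0.14, adjusted p = 0.533 by limma). Its 2 other probe sets gave log2 differences of -0.12 and -0.10, the sign of HSPD1 and HSPE1, so that the direction of HSPA9 depends on the probe set read.

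Of 18 further genes of mitochondrial protein quality control 8 were measured, of which 3 were above 0 and 5 below, with a median of -0.15, and 2 had an unadjusted p of 0.05 or less, both higher in Dox (25.0%, against 9.54% of all probe sets and 11.5% of all genes at their brightest probe set). GRPEL1, the nucleotide exchange factor of HSPA9, had signals of 196, 235 and 263 on the Dox arrays, against 152, 162 and 174 on the PBS arrays. The groups were separate (log2 difference 0.50, SE 0.20, adjusted p = 0.521 by limma), and the difference was 0.40 without Dox 3. TOMM20, a receptor of the outer membrane import complex, was likewise separate, with 830.0, 1159 and 1164 on the Dox arrays, against 709, 822 and 650.3 on the PBS arrays (log2 difference 0.52, SE 0.20, adjusted p = 0.521 by limma), and differed by 0.44 without Dox 3. Without that array the unadjusted p was 0.0573 for GRPEL1 and 0.0580 for TOMM20 by limma. PHB2, a prohibitin of the inner membrane, differed by 0.33 and TRAP1, the mitochondrial HSP90, by -0.24, both without overlap of the groups. Neither passed the adjusted threshold, as was true of every gene in the list.

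**Figure D4:**
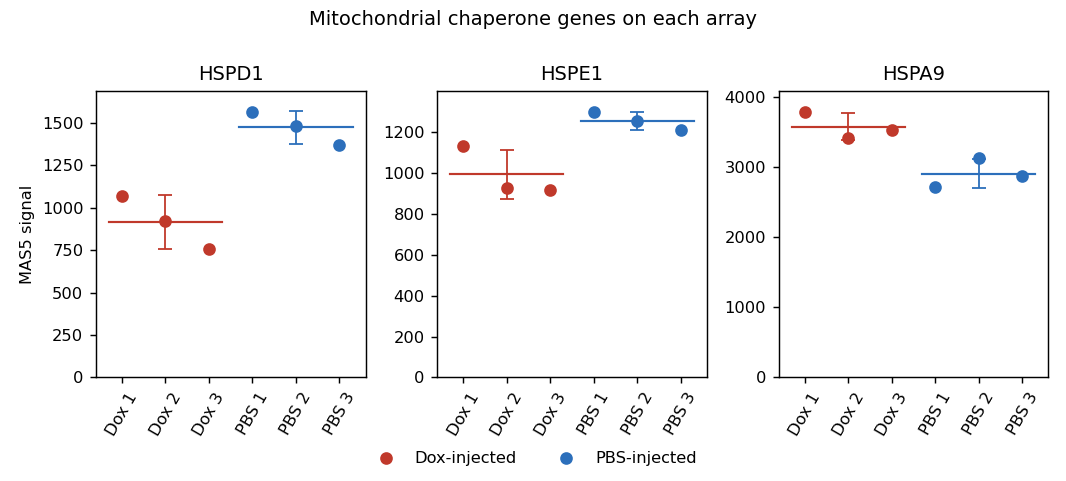
MAS5 signal (linear axis from 0) of the mitochondrial chaperone genes HSPD1, HSPE1 and HSPA9 on each array, Dox arrays in red and PBS arrays in blue, with lines at the means and bars of 1 SD (n = 3 each). The Dox points lie below all PBS points for HSPD1 and HSPE1 and above them for HSPA9.

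Several stress-inducible genes of the cytosolic HSP70 system were high on the array of Dox 3 alone. That array had the lowest correlations with the others. Its 3'/5' ratios of 4.30 at EF1A and 1.24 at GAPDH lay within the PBS range, and that of 32.6 at actin lay below it. The part of array quality in these signals was not tested. CNN1, a contractile protein of smooth muscle, was also high on that array, with 76.8, 73.9 and 1378.5 on the Dox arrays, against 191, 89.5 and 132 on the PBS arrays. TAGLN, another smooth muscle marker, was highest on Dox 3 too, with 110.3, 198.4 and 268.0 on the Dox arrays, against 191.3, 144.9 and 119.9 on the PBS arrays. The smooth muscle actin ACTA2 was not high on Dox 3, with 687, 842.5 and 703 on the Dox arrays, against 1415, 845 and 654 on the PBS arrays. The part of smooth muscle content in these signals was not tested. HSPA6, named in the annotation after the strictly inducible human HSP70, had signals of 10.7, 8.5 and 964 on the Dox arrays, against 4.8, 8.8 and 15.5 on the PBS arrays. Dox 1 and Dox 2 lay within the PBS range, PBS 1 being the lowest of all, and Dox 3 was 109.5-fold the median of the other 5 arrays. The fitted difference of 2.35 had an SE of 1.59 (adjusted p = 0.626 by limma) and was 0.14 without Dox 3. HSP70 genes are close in sequence, and the probe set may read more than its named gene.

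DNAJB1, the HSP40 that hands substrates to HSP70, had signals of 60.7, 78.3 and 619.6 on the Dox arrays, against 91.9, 67.5 and 69.6 on the PBS arrays. BAG3, an HSP70 nucleotide exchange factor that directs sarcomere proteins to autophagy, had 717, 670.5 and 3697 on the Dox arrays, against 1045, 739.8 and 759.5 on the PBS arrays. In both genes Dox 3 was far above the other 5 arrays, 8.9-fold their median for DNAJB1 and 5.0-fold for BAG3, while the signals of Dox 1 and Dox 2 were within or below the PBS range. Their differences of 0.92 (adjusted p = 0.684) and 0.53 (adjusted p = 0.762, both limma) became -0.13 and -0.27 without Dox 3.

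HSPH1 (HSP105), of the HSP110 family and chosen after its values were seen, had signals of 80.3, 63.6 and 331 on the Dox arrays, against 313, 104 and 111 on the PBS arrays. Here PBS 1 was nearly as high as Dox 3, and the difference of -0.36 with all arrays was -1.10 without Dox 3 and 0.15 without PBS 1. HSPA8, the constitutive HSP70 of all cells, had 1655, 1328 and 3662 on the Dox arrays, against 2387, 1965 and 1848 on the PBS arrays. Dox 3 was again the highest array and Dox 1 and Dox 2 the lowest of the 6, so that the difference was -0.04 with all arrays and -0.47 without Dox 3. DNAJA1, a cytosolic HSP40 also chosen after its values were seen, had 352, 239.8 and 576 on the Dox arrays, against 788, 452 and 409 on the PBS arrays, so that Dox 1 and Dox 2 were below every PBS array and Dox 3 was not. Its difference of -0.53 was -0.86 without Dox 3 and -0.24 without PBS 1.

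HSPA4, an HSP110 that recharges HSP70, differed by 0.57 (SE 0.35, adjusted p = 0.599 by limma) at its brightest probe set, with overlapping groups of 119.5, 149.8 and 300.2 on the Dox arrays, against 99.6, 114 and 144 on the PBS arrays. Without Dox 3 the difference was 0.18. A second HSPA4 probe set ran the other way, with 130.3, 51.0 and 22.4 on the Dox arrays, against 158, 123 and 153 on the PBS arrays, a log2 difference of -1.44 (SE 0.55). Which of the probe sets reads the gene was not tested. The 7 cytosolic HSP70 and HSP110 genes had a median of 0.01 with all arrays and -0.13 without Dox 3.

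**Figure D5:**
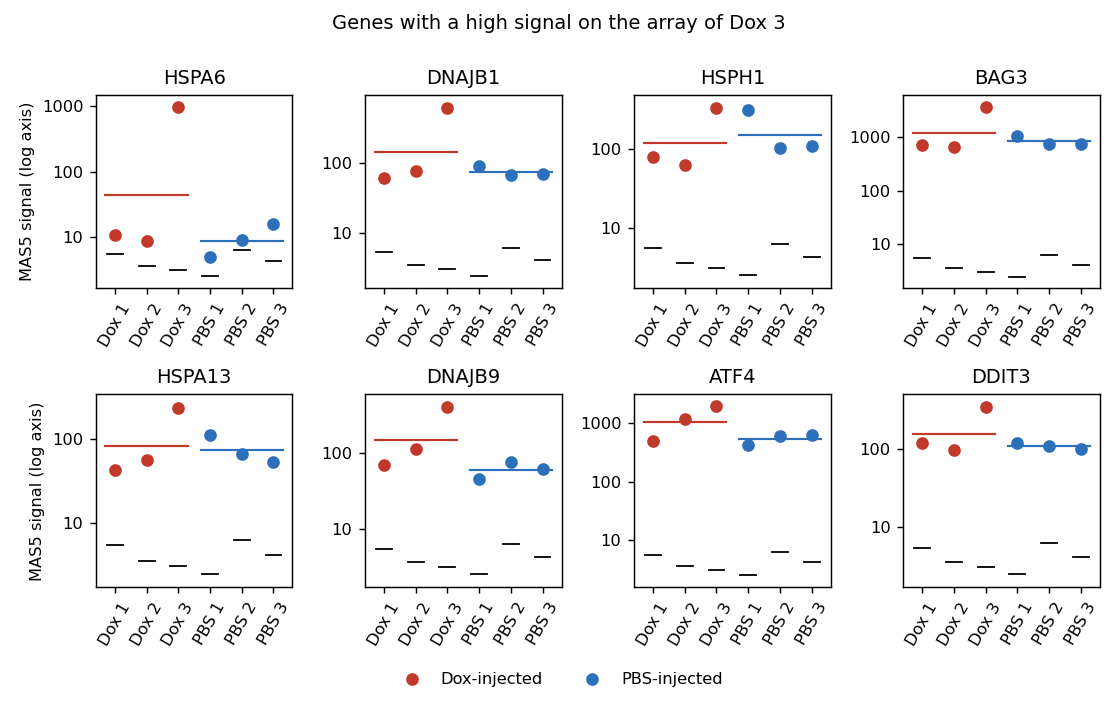
MAS5 signal (log axis) of 8 genes with a high signal on Dox 3, chosen after their values were seen, on each array, Dox arrays in red and PBS arrays in blue, with lines at the geometric means and black dashes at the highest Tag signal of each array. HSPA6, DNAJB1 and BAG3 are high on Dox 3 only, whereas ATF4 and DNAJB9 are also above the PBS points on Dox 2.

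At their brightest probe sets, the HSP90 pair differed in how far the groups came apart. HSP90AB1, the constitutive cytosolic HSP90, had signals of 1836, 1832 and 2822 on the Dox arrays, against 1649, 1663 and 1467 on the PBS arrays. All Dox arrays were above all PBS arrays (log2 difference 0.41, SE 0.20, adjusted p = 0.545 by limma), and the difference was 0.21 without Dox 3. HSP90AA1, the inducible form, overlapped between groups, with 3647, 3257 and 4576 on the Dox arrays, against 3271, 3033 and 3504 on the PBS arrays and a difference of 0.21, or 0.08 without Dox 3. After quantile normalization the HSP90AA1 difference was -0.02. Of the 4 other HSP90AA1 probe sets, the brightest had separate groups, with 1568, 1463 and 1462 on the Dox arrays, against 1369, 1323 and 1408 on the PBS arrays (log2 difference 0.13). The rest overlapped between groups and gave 0.32, 0.03 and 0.27.

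Among the 11 class A and B HSP40 genes, which stimulate the ATPase of HSP70, 6 were above 0 and 5 below, with a median of 0.07. DNAJB9, an ER resident HSP40 and target of XBP1, had signals of 70.2, 114 and 405 on the Dox arrays, against 46.2, 75.8 and 62.0 on the PBS arrays. Dox 2 and Dox 3 were above every PBS array, Dox 3 by far, and Dox 1 was within the PBS range (log2 difference 1.30, SE 0.57, adjusted p = 0.523 by limma, 0.57 without Dox 3 and 1.84 without Dox 1). Its 2 other probe sets gave 1.38 and 0.24. DNAJB6, which keeps proteins from aggregating at the Z disc, had 318, 409 and 809 on the Dox arrays, against 331, 339.8 and 286 on the PBS arrays, again highest on Dox 3 (log2 difference 0.57, SE 0.32, adjusted p = 0.583 by limma, 0.18 without Dox 3). Its 3 other probe sets gave 0.07, -0.16 and -0.16. DNAJA4, another cytosolic HSP40, differed by 0.07, and by -0.33 without Dox 3.

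The 11 class C HSP40 genes had 4 differences above 0 and 7 below, with a median of -0.02, and none had an unadjusted p of 0.05 or less. DNAJC3 (p58IPK), an ER co-chaperone, was dim, with 11.4, 31.2 and 40.9 on the Dox arrays, against 11.2, 15.8 and 14.0 on the PBS arrays (log2 difference 0.85, SE 0.50, adjusted p = 0.590 by limma, 0.48 without Dox 3). Dox 2 and Dox 3 were above the PBS arrays and Dox 1 was not. DNAJC9, which also chaperones histones, differed by -0.70 with overlapping groups, and by -0.38 without Dox 3 and -0.27 without PBS 1. DNAJC8, the brightest of the class and a spliceosome-associated protein, differed by -0.10. DNAJC6, the auxilin that uncoats clathrin vesicles and also chosen after its values were seen, lay within the Tag range on 5 arrays, and no fold is read from it.

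The 6 subunits of the cytosolic chaperonin TRiC, which folds actin and tubulin, showed little spread, with log2 differences from -0.25 to 0.45. CCT2 was the highest, with 937, 1472 and 1618 on the Dox arrays, against 960.4, 1119 and 819.9 on the PBS arrays, where Dox 1 lay within the PBS range (log2 difference 0.45, SE 0.24, adjusted p = 0.564 by limma, 0.29 without Dox 3 and 0.69 without Dox 1). CCT6A was the lowest, with 601.6, 514.5 and 552.6 on the Dox arrays, against 800.6, 602.1 and 602.3 on the PBS arrays, where the groups were separate only narrowly (log2 difference -0.25, SE 0.18, adjusted p = 0.645 by limma). PBS 1 stood above the other PBS arrays, and without it the CCT6A difference was -0.12. CCT4, the brightest, differed by 0.04, and by -0.09 after quantile normalization. Of the 5 BAG and HSPBP1 genes, BAG6, which guards newly made membrane proteins, differed by 0.31 (SE 0.20, adjusted p = 0.620 by limma), by 0.16 without Dox 3, and by -0.19 when all its probe sets were averaged.

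ER chaperones showed no common direction. Of 8 genes, 5 were above 0 and 3 below, with a median of 0.03, and none had an unadjusted p of 0.05 or less. HSPA5 (BiP), the HSP70 of the ER and the usual marker of the unfolded protein response, had signals of 1757, 1100.3 and 2233 on the Dox arrays, against 1839.7, 1628 and 1468 on the PBS arrays. Dox 2 was the lowest and Dox 3 the highest of the 6 arrays, and the difference of -0.01 had a 95% interval of -0.59 to 0.57. HSP90B1 (GRP94), the ER form of HSP90, had 741, 549 and 468 on the Dox arrays, against 695, 662 and 742 on the PBS arrays, with Dox 2 and Dox 3 below the PBS arrays and Dox 1 among them (log2 difference -0.28, SE 0.20, adjusted p = 0.646 by limma, -0.13 without Dox 3 and -0.46 without Dox 1).

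CANX, the membrane-bound lectin chaperone calnexin, had signals of 991, 976 and 988 on the Dox arrays, against 766, 852 and 902 on the PBS arrays. The groups were separate and the Dox signals lay close together (log2 difference 0.23, SE 0.15, adjusted p = 0.621 by limma). Its 5 other probe sets all overlapped between groups. The brightest of them read 916, 739 and 716 on the Dox arrays, against 569, 636 and 741 on the PBS arrays (log2 difference 0.28). The rest gave 0.08 and -0.01, and at low signals 0.59 and -0.61. CALR, its soluble counterpart calreticulin, overlapped, with 772, 349 and 505 on the Dox arrays, against 510.5, 402 and 567 on the PBS arrays, and differed by 0.07. The disulfide isomerases PDIA3, PDIA6 and PDIA4, chosen after their values were seen, differed by 0.04, 0.02 and -0.28, and PDIA4 by -0.49 without Dox 1 and -0.15 without Dox 2. HSPA13, an HSP70 of microsomes chosen after its values were seen, followed Dox 3, with 42.4, 56.6 and 236 on the Dox arrays, against 113, 65.8 and 53.5 on the PBS arrays, and differed by 0.17 with all arrays and by -0.59 without Dox 3.

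Of the ER stress regulators, ATF4, the transcription factor made when translation is slowed by eIF2 alpha phosphorylation, had signals of 499, 1189.5 and 1967 on the Dox arrays, against 427, 617 and 624 on the PBS arrays. Dox 2 and Dox 3 were above every PBS array and Dox 1 was within their range (log2 difference 0.94, SE 0.44, adjusted p = 0.534 by limma). The difference was 0.49 without Dox 3 and 1.48 without Dox 1. DDIT3 (CHOP), the pro-apoptotic factor downstream of ATF4, had 119, 96.7 and 343 on the Dox arrays, against 118, 108 and 100.4 on the PBS arrays. It was high on Dox 3 alone, and its difference of 0.54 became -0.02 without that array. XBP1, whose messenger is spliced by IRE1 in the stress response, had 778, 538 and 778 on the Dox arrays, against 737, 664 and 656 on the PBS arrays, with overlapping groups and a difference of 0.01 (95% interval -0.44 to 0.45). A single signal per gene does not separate the spliced from the unspliced form.

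Of 50 other genes of the unfolded protein response 23 were measured, of which 10 were above 0 and 13 below, with a median of -0.01, and 1 in each direction had an unadjusted p of 0.05 or less (8.70%, against 9.54% of all probe sets and 11.5% of all genes at their brightest probe set). ATF3, a stress-induced transcription factor downstream of ATF4, had signals of 75.4, 1116 and 498 on the Dox arrays, against 32.6, 168 and 38.1 on the PBS arrays. Dox 2 and Dox 3 were above all PBS arrays and Dox 1 was below PBS 2 (log2 difference 2.55, SE 0.96, adjusted p = 0.521 by limma, 1.71 to 3.65 with 1 array left out). ASNS, the asparagine synthetase that ATF4 activates, ran the other way, with 77.5, 40.7 and 46.5 on the Dox arrays, against 114, 119 and 90.9 on the PBS arrays. Every Dox array was below every PBS array, and the difference of -1.02 (SE 0.30, adjusted p = 0.521 by limma) stayed between -1.30 and -0.84 with any 1 array left out. CEBPB, a partner of ATF4 and DDIT3, differed by 0.95, and PPP1R15A (GADD34), which restores translation, by 0.60, both with overlapping groups. Without PBS 1 the CEBPB difference was 0.43.

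Of 27 heat shock factors and HSP90 co-chaperones 22 were measured, of which 14 were above 0 and 8 below, with a median of 0.05, and none had an unadjusted p of 0.05 or less. HSF1, the main driver of the heat shock response, had signals of 79.9, 116 and 146 on the Dox arrays, against 115, 95.4 and 62.3 on the PBS arrays, with Dox 3 the highest of the 6 arrays and overlapping groups. HSF1 and HSF2, its paralogue, differed by 0.33 and 0.01, and both were chosen after their values were seen. That of HSF1 was 0.13 without Dox 3 and 0.08 without PBS 3. FKBP5, a co-chaperone of steroid receptors that glucocorticoids induce, had 337, 766 and 828 on the Dox arrays, against 232, 455 and 367 on the PBS arrays. Dox 2 and Dox 3 were above the PBS arrays and Dox 1 was not (log2 difference 0.82, SE 0.38, adjusted p = 0.533 by limma, 1.23 without Dox 1). SUGT1, an HSP90 co-chaperone, had 66.0, 48.8 and 23.0 on the Dox arrays, against 84.3, 73.7 and 71.5 on the PBS arrays, and STUB1 (CHIP), the ubiquitin ligase that acts with HSP70, had 351, 335 and 308 on the Dox arrays, against 385, 466 and 405 on the PBS arrays. In both, every Dox array was below every PBS array, with differences of -0.86 and -0.34, and that of SUGT1 was -0.43 without Dox 3. They were the only 2 of the 22 genes without overlap of the groups (9.09%). The share was 16.3% of all probe sets and 19.4% of all genes at their brightest probe set, with 10.4% of those genes lower in Dox. PFDN1, a prefoldin subunit that delivers actin to TRiC, differed by 0.35, and by 0.21 without PBS 1.

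For 28 of the 64 genes the array held more than 1 probe set. Of their 46 other probe sets, 40 lay above the Tag range on at least 3 arrays, and 27 of these had the sign of the brightest probe set and 13 the opposite one. HSPD1, HSPE1, HSPB7 and HSPB3 were each read by a single probe set, so no second reading of these genes was at hand.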

How the data were processed

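Affymetrix Porcine Genome Arrays were hybridized with LV free wall RNA, 1 piglet per array, 3 after Dox and 3 after PBS. The deposited values are MAS5 intensities that the authors computed with GCOS 1.4, scaled to a trimmed mean of 100 per array, and they were kept as deposited. Signals of 0 (311 probe sets on any array) were set to 0.1, the lowest signal above 0, before taking log2. Of 24123 probe sets, 124 array controls were left out. limma 3.58.1 in R 4.3.3 (lmFit, then eBayes with an intensity trend, prior degrees of freedom 4.497) fitted the group difference over all 6 arrays without covariates, with Benjamini-Hochberg adjustment over 23999 probe sets. A call needed an adjusted p of 0.05 or less and a change of 2-fold or more. The fit was tested on simulated data. Each animal is a separate sample, so the spread is between animals, and the number of arrays limits the precision.

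Gene names come from GEO's platform annotation (of the probe sets tested, 10069 have 1 symbol, 198 several and 13732 none), and a gene with several probe sets was represented by that of highest mean log2 signal. The members and gene lists were chosen with earlier results of these data known, and the Tag range after the values were seen. Named are all genes at an unadjusted p of 0.05 or less, the brightest and the 2 with the smallest p of each role, 14 standard markers of these responses, and up to 4 with the smallest p of each pathway list; others are marked. The fit was repeated after quantile or cyclic loess normalization, with 16 added before log2, without probe sets dimmer than the median, with eBayes lacking the trend, with array weights, with a replicate block, with each array left out, on gene means over probe sets, and by the methods' t-test. Gene neighbours come from the RefSeq table of Sscrofa11.1. Plots came from matplotlib 3.10.9 (Python 3.11.15).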

Additional observations from a re-analysis of the deposited data

How the results depend on the processing

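No member passed the adjusted threshold with a change of 2-fold or more in any of the 16 settings, and the median difference of the 64 genes stayed between 0.00 and 0.11. Quantile and cyclic loess normalization moved the median of all probe sets from -0.10 to -0.00, and gave the small heat shock proteins medians of 0.26 and 0.28 in place of 0.46. The number of members at an unadjusted p of 0.05 or less was 3, where 9.54% of all probe sets had such a p. With the share of all probe sets in brackets, it was 1 with eBayes without a trend (7.4%), 10 with array weights (16.1%), 5 by the methods' t-test (7.16%) and 6 with the replicate block (9.64%). With 1 array left out it was 1 to 17 (4.51% to 16.2%). The 17 came without Dox 1, where 16.2% of all probe sets had such a p and the lowest adjusted p of a member was 0.109 by limma, and without Dox 2, PBS 2 or PBS 3 the 1 member was HSPD1. The cause of these changes was not tested. Deviations of same-numbered animals correlated at -0.01, 0.02 and -0.06, and those of differently numbered animals at -0.04 to 0.04. With 3 arrays a group this check cannot exclude that the replicate numbers pair the animals. The paper describes the assayed samples as 3 pairs, and the labels give only replicate numbers. Of 31 named members, 19 kept their sign in every setting and 12 did not. Quantile and cyclic loess normalization gave -0.094 and -0.071 for CCT4 and -0.048 and -0.025 for XBP1, and quantile normalization -0.018 for HSP90AA1. Array weights gave -0.19 for CALR, -0.066 for DNAJA4 and -0.16 for XBP1, and averaging a gene's probe sets gave -0.19 for BAG6, -0.74 for DNAJA4 and -0.60 for HSPA4. With 1 array left out, the difference was -0.27 to 0.96 for BAG3, -0.22 to 0.35 for CALR, -0.013 to 0.095 for CCT4, -0.020 to 0.89 for DDIT3, -0.33 to 0.34 for DNAJA4, -0.13 to 1.54 for DNAJB1, -0.24 to 0.27 for HSPA5, -0.47 to 0.26 for HSPA8 and -0.082 to 0.18 for XBP1. Among the small heat shock proteins, HSPB3 had an unadjusted p of 0.05 or less in 9 of the 16 settings and HSPB7 in 7. How many of all genes reached such counts was not computed.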

Other observations

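Beside ASNS, 5 other genes of the unfolded protein response list had Dox and PBS signals that did not overlap, chosen here after their values were seen. SEC61A1, the channel subunit of the ER translocon, had 134, 160.2 and 244 on the Dox arrays, against 133, 122 and 127 on the PBS arrays (log2 difference 0.45, SE 0.26, adjusted p = 0.583 by limma, 0.20 without Dox 3). SDF2L1, an ER-resident partner of chaperones, was dim, with 18.3, 27.6 and 23.1 on the Dox arrays, against 17.9, 13.1 and 15.1 on the PBS arrays. Both were higher on every Dox array, SEC61A1 mostly on Dox 3. ATF6B, SERP1 and CREB3L2 were lower on every Dox array, with log2 differences of -0.23, -0.30 and -0.55, and that of ATF6B was -0.13 without Dox 3. ATF6B and CREB3L2 are ER-bound transcription factors and SERP1 protects membrane proteins at the translocon. The separate genes of the list, ASNS included, numbered 2 higher and 4 lower of 23 measured. That is 26.1%, against 16.3% of all probe sets and 19.4% of all genes at their brightest probe set. The smallest adjusted p among these 6 genes was 0.521 by limma.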
